A study of Mus musculus with 30 samples.

Results

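The genes described here are 45 genes of DNA replication and mitosis, out of 32285 genes in the annotation of 4 single-cell RNA libraries of mouse spleen. They were chosen by symbol, with earlier results of these data known, and each symbol matched 1 row of the files. The 20 S phase genes copy DNA, and the 25 mitosis genes condense and part the chromosomes. The libraries were made from splenocytes after removal of red blood cells, with 2 libraries labelled Smc3-WT and 2 labelled Smc3-cKO. Smc3 encodes a core subunit of cohesin, the ring complex that holds sister chromatids together and folds chromatin, and the study concerns its work with the transcription factor PU.1 in conventional dendritic cells. The labels name no Cre line, no deleted part of Smc3, no treatment and no other allele for these libraries. An age of 6 to 8 weeks is given for the mice used for sorted dendritic cells. The labels do not say if the libraries of one genotype are from different mice. A p-value here therefore reflects spread among these libraries alone, and that spread may be technical.

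A dividing cell first licenses replication origins with the MCM helicase, then copies its genome in S phase, and later builds a spindle that parts the copies. Transcription of S phase genes is driven largely by E2F factors once the retinoblastoma protein lets go of them, while most mitosis genes are held down until late in the cycle by the DREAM complex and raised by the B-MYB and FOXM1 factors. In the spleen of the mouse, red cell precursors, germinal centre B cells, plasmablasts and activated T cells divide, whereas most lymphocytes rest. Conventional dendritic cells also divide in the spleen after their precursors arrive from the marrow.

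The different regulation of both lists is described by short elements in their promoters. RefSeq promoters of GRCm38.p6, each 250 bases before to 50 bases after a start, matched 37 members by symbol. No promoter was matched for Mcm4, Pole, Gins2, Ccna2, Aurkb, Tpx2, Stmn1 and Smc4. The following elements were searched on both strands: the E2F element (TTTCCCGC or TTTGGCGC), the CCAAT box bound by NF-Y (CCAAT), and the cell cycle homology region, CHR, through which DREAM binds (TTTGAA or TTCGAA). No match of one element overlapped a match of another. The E2F element was in 7 of 20 S phase promoters (35%), in 2 of 21 mitosis promoters (9.52%) and in 1.56% of all 32851 promoters. The CHR showed the opposite order, with 18 of 21 mitosis promoters (85.7%), 4 of 20 S phase promoters (20%) and 19.2% of all promoters. A CCAAT box was found in 15 of 20 S phase promoters (75%), 18 of 21 mitosis promoters (85.7%) and 37.4% of all. Both a CCAAT box and a CHR stood in 76.2% of mitosis promoters, against 15% of S phase promoters and 7.52% of all. The median GC content was 57.3% in S phase promoters, 60.7% in mitosis promoters and 52.7% in all, and a match describes letters only, not a bound site. To show how the lists differ, the following sequences are the 170 bases before the first RefSeq start of 2 S phase genes with an E2F element and of 3 mitosis genes with a CCAAT box and a CHR. The S phase genes are those whose RefSeq window covers these 170 bases with an E2F element in them. The mitosis genes are those with the most transcripts in cycling cells among the members with both a CCAAT box and a CHR there. Capitals mark the matches of all elements on either strand, and each sequence runs 5′ to 3′ on the strand of its gene.
Mcm6, chr1:128359706-128359875, minus strand: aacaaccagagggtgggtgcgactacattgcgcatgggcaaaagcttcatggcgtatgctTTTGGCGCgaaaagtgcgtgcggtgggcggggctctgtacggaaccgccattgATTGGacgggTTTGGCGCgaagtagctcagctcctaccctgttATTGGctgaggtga
Mcm5, chr8:75109298-75109467, plus strand: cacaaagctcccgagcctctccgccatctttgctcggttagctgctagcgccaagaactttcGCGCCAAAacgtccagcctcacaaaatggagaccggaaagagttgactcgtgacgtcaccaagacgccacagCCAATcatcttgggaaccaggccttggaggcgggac
Mki67, chr7:135716451-135716620, minus strand: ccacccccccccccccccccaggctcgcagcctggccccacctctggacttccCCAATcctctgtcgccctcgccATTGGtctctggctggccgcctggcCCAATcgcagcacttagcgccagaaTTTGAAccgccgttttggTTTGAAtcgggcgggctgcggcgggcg
Top2a, chr11:99024200-99024369, minus strand: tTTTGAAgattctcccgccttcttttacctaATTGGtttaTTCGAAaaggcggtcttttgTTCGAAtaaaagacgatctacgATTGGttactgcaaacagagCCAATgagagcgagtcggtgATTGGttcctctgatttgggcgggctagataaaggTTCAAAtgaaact
Kif11, chr19:37376212-37376381, plus strand: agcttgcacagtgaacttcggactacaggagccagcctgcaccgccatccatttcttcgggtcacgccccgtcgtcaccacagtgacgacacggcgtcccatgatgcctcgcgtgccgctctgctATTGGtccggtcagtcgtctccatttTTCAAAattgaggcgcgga
Mcm6 held 2 E2F elements and 2 CCAAT boxes, and Mcm5 held 1 of each. Mki67 held 3 CCAAT boxes and 2 CHR elements, Top2a held 4 of each, and Kif11 held 1 of each.

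The libraries held 51299056, 48970568, 40367056 and 46678046 transcripts counted by unique molecular identifiers (UMIs), in the order Smc3-WT 1, Smc3-WT 2, Smc3-cKO 1 and Smc3-cKO 2, which is kept for every set of 4 values. After filtering, 44803 of 53644 barcodes remained (12100, 13149, 6850 and 12704), with median depths of 2755, 2783, 4211 and 2734 UMIs. Pairs of libraries shared 36 to 61 barcodes, and no library shared more than 0.432% of its barcodes with another. Classes were gated on fixed markers that include no member. Of the kept cells 39173 (87.4%) fell into 14 classes, 2797 carried markers of 2 lineages and 2833 had too few markers. Erythroid cells, those left after red cell removal, were uneven over the libraries, with 393, 43, 296 and 2 cells. Smc3-WT 1 stood apart with a median mitochondrial share of 7.51% (3.25% to 5.64% in the other libraries), 1629 cells of 2 lineages (265 to 483) and 1.03% called doublets (4.05% to 6.41%). Defining markers were high in their class for the classes described here: erythroid cells held Hba-a1 at 31376 CPM (a gene's UMIs scaled to the summed UMIs of the cells) and B cells at 521 CPM, and Flt3 reached 485 CPM in conventional dendritic cells. The 6 cells gated as stem and progenitor cells carried neutrophil granule genes (S100a8 at 8669 CPM) and are not described. Smc3 itself was at 119, 121, 120 and 120 CPM over all cells. In conventional dendritic cells it was at 73.4, 98.8, 143 and 123 CPM, not lower in the libraries labelled Smc3-cKO. Reads of a 3′ library need not lie in the deleted part, which is not named, so Smc3 RNA does not check the genotype labels.

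Nearly all members were at their highest in erythroid cells. Of 45 members, 44 had their highest pooled CPM there among the classes with at least 20 cells in at least 2 libraries. Smaller classes, such as stem and progenitor cells, were not ranked. Mki67, a coat protein of mitotic chromosomes and the usual marker of dividing cells, stood at 2499, 1338, 2080 and 596 CPM in erythroid cells, the last value from 2 cells. In B cells it stood at 45.3, 30.3, 43.0 and 21.6 CPM, and the second highest class, neutrophils, had 271 CPM pooled. Every erythroid value of Mki67 lay above every B cell value. Rrm2, the subunit of ribonucleotide reductase that limits the supply of DNA building blocks, was at 407, 308, 666 and 106 CPM in erythroid cells and at 15.7, 7.53, 13.5 and 6.85 CPM in B cells. Cdc6, which loads the MCM helicase on origins, was at 175, 216, 211 and 53.0 CPM in erythroid cells and at 4.53, 3.36, 3.13 and 2.46 CPM in B cells. For both genes the erythroid libraries were also all above the B cell libraries.

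**Figure D1:**
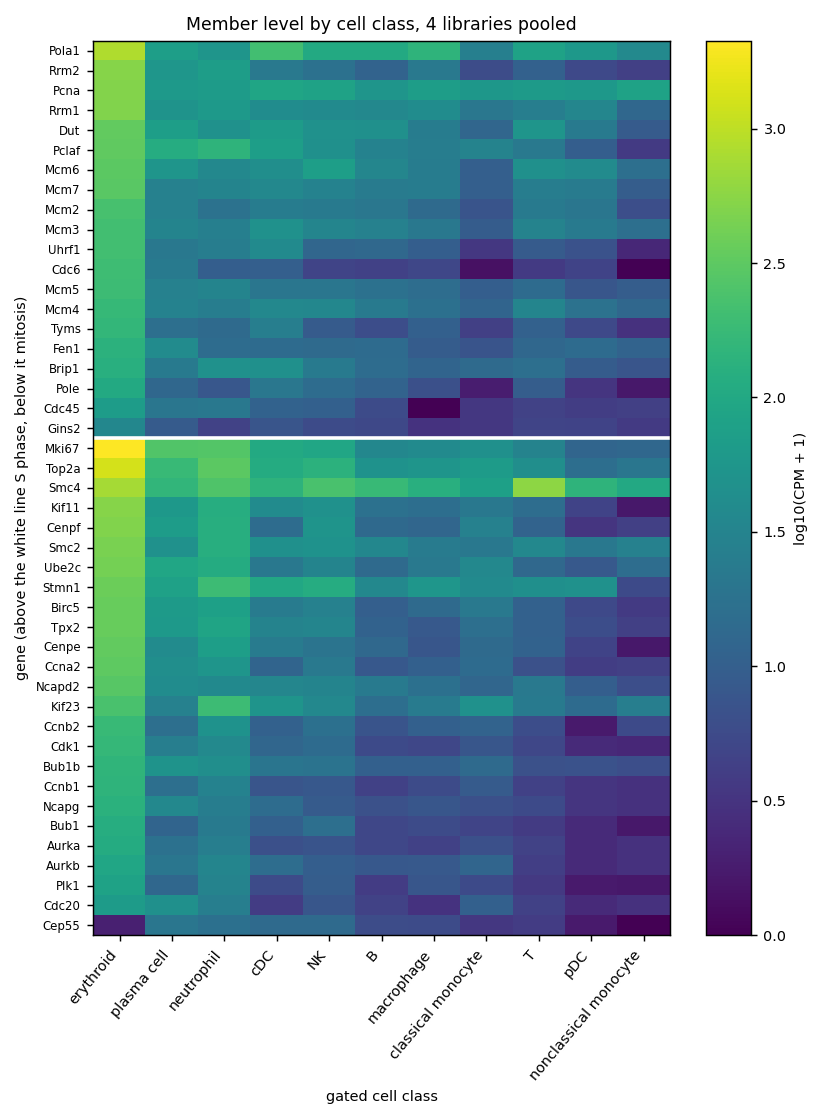
Pooled level of each of the 45 members (rows, S phase genes above mitosis genes) in 11 classes of spleen cells (columns), as log10 of CPM plus 1 in colour. The erythroid column is the brightest for 44 members, Cep55 is the exception, and Smc4 is high in T cells too.

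Erythroid cells were compared with B cells within Smc3-WT 1, Smc3-WT 2 and Smc3-cKO 1, the libraries with enough erythroid cells, in edgeR's quasi-likelihood test with the library as a block, a test chosen after these levels had been seen. Of 45 members, 44 were higher and 1 was lower in erythroid cells at a Benjamini-Hochberg adjusted p under 0.05. Over all 12610 genes tested, 25% were higher and 29.4% lower. The median log2 difference was 3.69 over S phase genes, 4.69 over mitosis genes and -0.20 over all genes. The classes also differ in depth, with median UMIs per erythroid cell of 2840, 7561 and 7089 in these libraries.

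Among the genes of origin licensing and unwinding, Cdc6 had the widest gap of all members, with a log2 difference of 5.96 (SE 0.25). The helicase subunits Mcm2 to Mcm7 lay between 3.23 (Mcm3) and 3.83 (Mcm2), at 170 CPM (Mcm4) to 306 CPM (Mcm6) in erythroid cells. Gins2 and Cdc45, which join MCM in the active helicase, were at 33.9 and 67.9 CPM in erythroid cells and at 4.29 and 4.71 CPM in B cells. Of the fork proteins, Pcna, the sliding clamp, was at 518 CPM against 53.9, and Pola1, the catalytic subunit of the priming polymerase, at 859 CPM against 104. Pole, the leading strand polymerase, and the flap nuclease Fen1 were at 103 and 137 CPM in erythroid cells and at 10.4 and 13.7 CPM in B cells. The clamp partner Pclaf was at 330 CPM, the methylation reader Uhrf1 at 208 CPM and the helicase Brip1 at 125 CPM there. For nucleotide supply, Rrm2 differed by 5.41 (SE 0.28) and Tyms, thymidylate synthase, by 4.91 (SE 0.34). The other reductase subunit, Rrm1, differed by 4.01 and Dut, which removes dUTP, by 3.31. All of these were called higher in erythroid cells.

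Mki67 led the mitosis genes with a log2 difference of 5.796 (SE 0.33). The kinase Cdk1 differed by 5.06, its cyclins Ccna2, Ccnb1 and Ccnb2 by 5.33, 5.37 and 4.73, and the kinase Plk1 by 4.93. The Aurora kinases differed by 4.64 (Aurka) and 3.79 (Aurkb), and Birc5, the passenger partner of Aurkb, by 5.34. The checkpoint kinases Bub1 and Bub1b differed by 4.83 and 4.12. Ube2c and Cdc20, which work with the anaphase-promoting complex, differed by 4.995 and 4.33. The spindle and kinetochore proteins Kif11, Tpx2, Cenpe and Cenpf lay between 4.69 and 5.13. Among genes of chromosome structure, Top2a, which untangles DNA, differed by 4.61 and was at 1136, 874, 1483 and 1007 CPM in erythroid cells. The condensin subunits Smc2, Ncapg and Ncapd2 differed by 3.88, 4.63 and 3.76. Stmn1, which destabilizes microtubules, differed by 3.63. The condensin subunit Smc4 had the narrowest positive gap, 2.13 (SE 0.28), with 171 CPM in B cells.

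Cep55, which recruits the machinery that cuts the bridge between daughter cells, was the exception. It was at 1.17, 1.88, 0.729 and 0 CPM in erythroid cells (5 UMIs in all) and at 4.99 CPM in B cells, from 61, 144, 123 and 98 UMIs. The log2 difference was -2.10 (SE 0.67, edgeR adjusted p = 0.0330). Without Smc3-WT 1 the adjusted p was 0.00372, without Smc3-WT 2 it was 0.0905, and without Smc3-cKO 1 the difference was -1.24 with an adjusted p of 0.448. The highest class was plasma cells, with 18.9 CPM from 4, 6, 7 and 4 UMIs, followed by neutrophils with 15.9 CPM. In cycling cells, as called below, B cells held 39 Cep55 UMIs in 374 cells (7, 12, 13 and 7 per library) and erythroid cells 0 UMIs in 413 cells. A count of 0 allows up to 7.26 CPM, taking 3 counts over the pooled libraries. The level in cycling B cells was 14.4-fold above this limit, with no counting error on the 39 UMIs. Cep55 UMIs enter the call of cycling cells, which can raise its level in cycling B cells, so the fold is no lower bound. Kif23, the midbody motor that acts at the same bridge, did not share this pattern, with 238 CPM in erythroid cells and 14.7 CPM in B cells.

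**Figure D2:**
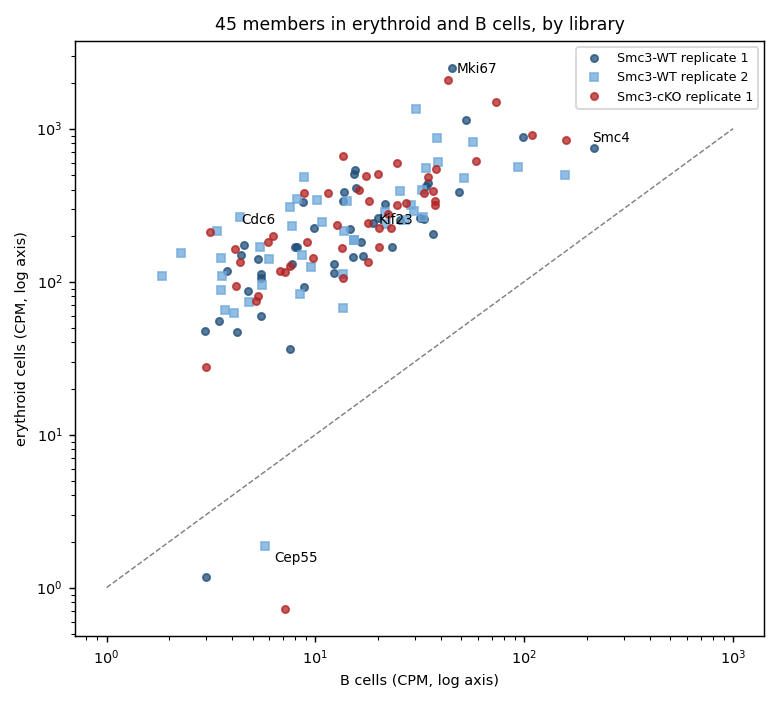
CPM of the 45 members in erythroid cells against B cells on log axes, for the 3 libraries with enough erythroid cells; the dashed line marks equal levels. Cep55 lies below the line, at 1.17, 1.88 and 0.729 CPM in erythroid cells, and the other members lie above it.

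Erythroid cells held a large share of member transcripts in some libraries, although they were few. They gave 29.3%, 10.2%, 45.9% and 1.47% of all S phase UMIs and 34.8%, 10.9%, 50.3% and 1.94% of all mitosis UMIs, while making up 3.25%, 0.327%, 4.32% and 0.0157% of the cells. Summed over all cells, mitosis genes stood at 1167, 845, 1676 and 582 CPM with erythroid cells and at 796, 762, 907 and 572 CPM without them. The corresponding S phase sums were 695, 683, 1076 and 540 CPM with and 514, 621, 634 and 533 CPM without erythroid cells. Without this class the distance between libraries of one genotype was smaller for mitosis genes in both genotypes and for S phase genes in Smc3-cKO, and larger for S phase genes in Smc3-WT.

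Not every member marks division. In cells thinned to 1000 UMIs, 79.7% of Bub1 UMIs, 76.4% of Mki67 UMIs and 75.2% of Cenpf UMIs lay in cells with at least 5 member UMIs. Among S phase genes Pclaf (70.2%) and Cdc6 (68.3%) were the most concentrated. For Smc4 the share was 12.3%, and cells below that limit still held Smc4 at 257 CPM. Pola1 (24.4%, with 73.0 CPM in the other cells) and Pcna (23.7%, 48.5 CPM) were also spread over cells that held few other members. Smc4 was at 609, 607, 520 and 563 CPM in T cells, against 217, 156, 159 and 156 CPM in B cells. Since the limit counts these same UMIs, the shares are a description.

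Cells were called cycling when, thinned to 1000 UMIs, they held at least 3 UMIs from at least 2 members, with a stricter limit of 5 UMIs beside it. Of the kept cells 42880 were deep enough, and 1923 were left out. The share of cycling cells was 12.3%, 6.71%, 10.2% and 5.85% at 3 UMIs and 3.99%, 2.94%, 6.73% and 1.49% at 5 UMIs. Smc3-WT averaged 9.49% ± 3.94 and Smc3-cKO 8.01% ± 3.06 (SD, n = 2 libraries each) at 3 UMIs. At both limits the genotypes overlapped. With 2 libraries against 2, the exact two-sided permutation test cannot go below p = 0.333, so shares of cells are given without a test. Unthinned, the shares at 3 UMIs averaged 41.6% and 38.9%.

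Among the classes with at least 20 cells in some library, erythroid cells were the most often cycling, with 48.2%, 81.4%, 74.6% and 2 of 2 cells at 3 UMIs and 44.6%, 79.1%, 73.2% and 2 of 2 at 5 UMIs. The shares hardly moved between the limits. Neutrophils were at 24.6%, 17.2%, 14.6% and 2.22% at 3 UMIs (118, 29, 130 and 90 cells), a mean of 20.9% ± 5.19 for Smc3-WT and 8.42% ± 8.76 for Smc3-cKO (SD, n = 2). Both libraries labelled Smc3-cKO lay below both Smc3-WT libraries, and Smc3-cKO 2 was far below Smc3-cKO 1. At 5 UMIs neutrophils were at 7.63%, 17.2%, 10.8% and 2.22%, and the genotypes overlapped. Plasma cells, which include dividing plasmablasts, were at 4.76%, 22.6%, 9.84% and 4.76% at 5 UMIs. These shares came from 1, 7, 6 and 1 cycling cells of 21, 31, 61 and 21. Nonclassical monocytes, blood cells that have left the cycle, had 0 cycling cells at 5 UMIs of 64, 72, 201 and 96, which allows up to 4.69%, 4.17%, 1.49% and 3.12%; other random draws of the thinning gave up to 1.56%, 0%, 0.498% and 1.04%. At 3 UMIs the same cells gave 7.81%, 1.39%, 1.49% and 2.08%, so shares of this size at the lower limit were also seen in a resting class, and read as background there. Free RNA differed between libraries in this class: Hba-a1 was at 939, 36.9, 570 and 3.27 CPM, Mki67 at 34.9, 4.61, 10.1 and 6.53 CPM and Smc4 at 180, 69.2, 105 and 65.3 CPM. The part of free RNA in the shares was not tested. Classical monocytes (0%, 1.08%, 2.87% and 0.341%), plasmacytoid dendritic cells (0%, 0%, 2.33% and 5.08%) and macrophages (1.65%, 2.94%, 1.41% and 4.35%) were low at 5 UMIs. In plasmacytoid dendritic cells both libraries labelled Smc3-cKO lay above both Smc3-WT libraries there, from 0, 0, 2 and 3 cycling cells. This also held in random draws 1 and 2. The genotypes overlapped in draw 3, with a mitochondrial limit of 20%, with doublets kept, and at 3 UMIs. At 3 UMIs macrophages were at 7.69%, 4.41%, 4.23% and 4.35%, with both libraries labelled Smc3-cKO just below both Smc3-WT libraries.

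**Figure D3:**
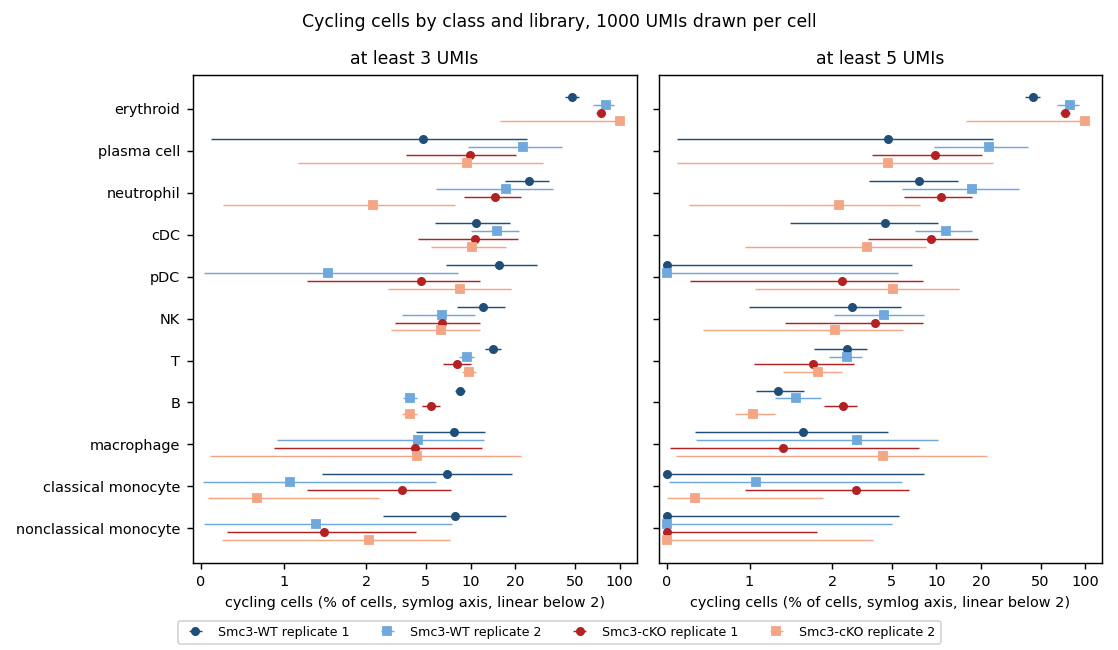
Share of cycling cells in percent (symmetric log axis) by class, 1 point per library with its exact 95% binomial interval, at 3 or more member UMIs (left panel) and 5 or more (right panel) of 1000. Erythroid cells lie at the top in both panels, and nonclassical monocytes are at 0 in all libraries of the right panel.

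B cells had 8.48%, 3.92%, 5.42% and 3.90% cycling cells at 3 UMIs, with Smc3-WT 1 the highest. At 5 UMIs the shares were 1.35%, 1.57%, 2.37% and 1.05%, from 85, 124, 87 and 78 cells. The exact (Clopper-Pearson) 95% intervals of the last set ran from 1.08% to 1.66%, 1.30% to 1.86%, 1.90% to 2.91% and 0.828% to 1.30%, counting error only. The highest and the lowest of these came from the 2 libraries labelled Smc3-cKO, so the spread within that genotype spanned both Smc3-WT values. The difference of the means, Smc3-cKO minus Smc3-WT, was -1.54 percentage points at 3 UMIs and 0.25 at 5 UMIs. T cells had 14.2%, 9.43%, 8.15% and 9.79% at 3 UMIs and 2.51%, 2.51%, 1.77% and 1.82% at 5 UMIs. At 5 UMIs both libraries labelled Smc3-cKO were below both Smc3-WT libraries. Without Smc4 and Pola1 among the counted genes, the T cell shares were 0.463%, 1.18%, 1.28% and 0.880%, and the genotypes overlapped. Of 3 other random draws of the thinning at 5 UMIs, draws 1 and 2 kept both libraries labelled Smc3-cKO lower (differences of -0.57 and -0.54 percentage points), and in draw 3 the genotypes overlapped (-0.03). Natural killer cells had 2.69%, 4.43%, 3.85% and 2.10% at 5 UMIs.

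Conventional dendritic cells, the cell type of the series, numbered 111, 178, 67 and 118. At 3 UMIs 10.9%, 15.0%, 10.8% and 10.3% were cycling, a mean of 12.97% ± 2.91 for Smc3-WT and 10.5% ± 0.363 for Smc3-cKO (SD, n = 2). Both libraries labelled Smc3-cKO lay below both Smc3-WT libraries, by less than the spread within Smc3-WT. At 5 UMIs the shares were 4.55%, 11.6%, 9.23% and 3.42%, and the genotypes overlapped. Without Smc4 and Pola1 the difference of the means at 3 UMIs was -0.03 percentage points, where it was -2.46 with them.

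Which classes the cycling cells came from changed from library to library. At 5 UMIs erythroid cells made up 37.5%, 9.34%, 46.5% and 1.08% of the cycling cells, following their number. B cells made up 18.5%, 34.1%, 19.7% and 41.9%, and T cells 8.28%, 19.2%, 4.08% and 33.3%. Cells with markers of 2 lineages held 18.7%, 14.3%, 12.2% and 9.68% of them. A doublet caller had removed other cells before, and its calls held cycling cells at 5.56%, 0.663%, 2.45% and 1.15%.

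Within cycling cells the classes differed in their balance of S phase to mitosis transcripts. In cycling B cells (374 at 5 UMIs, pooled) the log2 ratio of S phase to mitosis UMIs was -0.36, with -0.77, -0.29, -0.63 and 0.13 by library. Other B cells had 0.17. Cycling erythroid cells (413) were at -1.10, with -1.42, -0.67, -0.93 and -0.12, the last from 2 cells. In all 4 libraries the erythroid ratio was below that of B cells. Cycling T cells (188) were at -0.90, or -0.30 without Smc4 and Pola1, 24 natural killer cells at -1.42 and 30 neutrophils at -1.98. In 35 cycling conventional dendritic cells the ratio was 0.06, with -0.69, 0.24, -0.64 and 2.14 by library. The ratio depends on how many genes each list has and how well each is captured, so 0 marks no stage, and the spread over libraries in dendritic cells was wider than the distances between most classes.

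**Figure D4:**
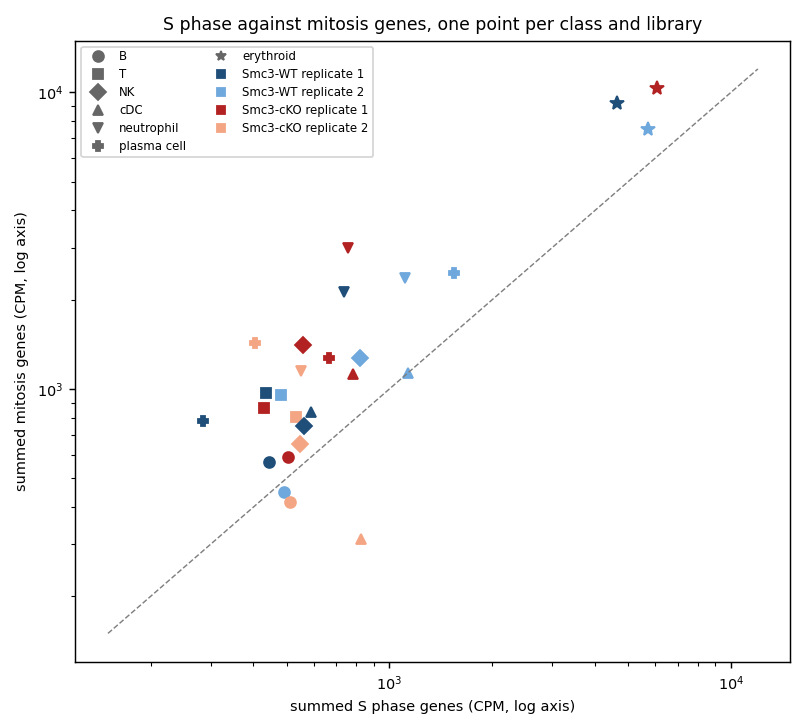
Summed CPM of 20 S phase genes against summed CPM of 25 mitosis genes on log axes, 1 point per class and library with at least 20 cells; the dashed line marks equal sums. Erythroid libraries lie at the top right, neutrophils above the line (2119, 2371, 2996 and 1154 CPM of mitosis genes), and B cells close to it.

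The members that carried the call were similar in lymphocytes and dendritic cells. In cycling B cells the S phase genes with most UMIs were Pola1 (283), Pclaf (247), Pcna (134), Dut (129) and Rrm1 (86), and the mitosis genes were Top2a (304), Smc4 (253), Mki67 (214), Stmn1 (192) and Kif11 (108). Pclaf was at 660 CPM in them and 6.61 in other B cells, Top2a at 813 against 16.6, and Mki67 at 572 against 11.1. In cycling T cells Smc4 led with 421 UMIs, at 2239 CPM against 566 in other T cells, ahead of Top2a (96), Stmn1 (85), Mki67 (69) and Kif11 (35). Their S phase genes were Pola1 (63), Pclaf (61), Pcna (58), Dut (46) and Mcm6 (37). In cycling dendritic cells Pola1 (33), Pcna (23), Pclaf (20), Dut (16) and Uhrf1 (12) led, with Top2a (28), Stmn1 (21), Mki67 (21), Smc4 (18) and Kif11 (15). Natural killer cells had Top2a (33), Stmn1 (27), Mki67 (17), Kif11 (15) and Cenpf (13), with Pola1 (14), Pclaf (9), Dut (8), Mcm6 (7) and Rrm1 (6). Cycling erythroid cells had Mki67 (1325), Top2a (705), Smc4 (430), Cenpf (347) and Kif11 (335), with Pola1 (419), Rrm2 (246), Pcna (241), Rrm1 (211) and Pclaf (155). Neutrophils had Mki67 (27), Top2a (22), Smc2 (20), Cenpf (16) and Kif23 (16), with Pclaf (16), Rrm2 (9) and 3 each of Mcm3, Mcm6 and Pola1. These genes chose the cells, so their levels in them are no finding.

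Comparing cycling erythroid with cycling B cells in the same 3 libraries (edgeR, library as block, cells thinned) asked which members differ when both are dividing. Here 27 of 38 members tested were higher in erythroid cells and 0 lower, against 25.8% higher and 23.9% lower of all 2428 genes. These were 10 of 16 S phase and 17 of 22 mitosis genes. Cdc6 (log2 2.66, SE 0.52), Rrm2 (2.62), Mki67 (2.39), Ube2c (2.26), Birc5 (2.18) and Aurka (2.18) had the widest differences. Counts in cycling B cells were low for some of these, with 0, 2 and 9 UMIs of Cdc6 and 2, 3 and 5 of Aurka. The values for Stmn1 (0.09), Pclaf (-0.06), Brip1 (-0.28), Aurkb (0.30), Pola1 (0.40), Smc4 (0.44), Bub1b (0.49), Dut (0.53), Mcm3 (0.70), Kif23 (0.72) and Mcm5 (0.84) did not pass the test. Without Smc3-WT 1 there were 8 calls higher, and without Smc3-cKO 1 also 8, so most calls rest on those libraries; without Smc3-WT 2 there were 22. Birc5, Ccnb2, Cdc6, Mki67, Rrm2 and Ube2c were called whichever library was left out. Cep55, not tested with all 3 libraries, was called lower without Smc3-WT 1 and without Smc3-WT 2. Both groups were chosen by the members' own UMIs, which limits this comparison. The filter on counts could also keep a member through its erythroid counts alone, as for Cdc6 and Aurka. The counts of calls, with all libraries or with 1 left out, are therefore a description and no support for a difference.

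Genes outside the list, which took no part in the call, were compared between cycling and other cells of a class. In B cells 38 of 42 other replication genes and 48 of 54 other mitosis genes were higher in cycling cells in all 4 libraries, with no test. Of all 19238 genes with a UMI in B cells, 7.37% were higher and 21.4% lower in all 4 libraries, and of the 12651 genes with at least 20 UMIs, 11.2% were higher. The largest values of the smallest ratio over libraries belonged to Ttk, a checkpoint kinase (61.5 against 1.12 CPM, with a smallest ratio of 36.6 over the libraries), Melk (31.5), Cdca2 (27.6), Anln (23.5) and Kif4 (23.5). Of 7 genes of G1 entry, 4 were higher in all 4 libraries: Ccnd2 (211 against 113), Cdk4 (80.2 against 29.4), Cdk6 (270 against 172) and Myc (34.8 against 23.4). Ccnd3 was lower in all 4 (505 against 1105). Of 12 brakes of the cell cycle, Cdkn2c was higher (45.5 against 5.45) and Btg2 lower (93.6 against 145). Cdkn1a had 0 UMIs in 374 cycling and 19 in 24977 other B cells. It counted as lower only through these 0 counts, which are too few to show a difference. Germinal centre B cell markers were few but present, with 4 of 8 higher in all 4 libraries: Rgs13 (15 UMIs in cycling cells), Nuggc (7), Fas (7) and Gcsam (5). In T cells 11 of 42 other replication and 31 of 54 other mitosis genes were higher in all 4 libraries, where 3.16% of all 17460 genes with a UMI were higher and 16.6% lower. They were led by Cdca2 (smallest ratio 19.4), Ckap2 (18.5), Knl1 (14.3), Ccnf (12.9) and Cdca8 (10.8). Of the 7 genes of G1 entry, 0 were higher and 2 lower in all 4 libraries in T cells. Ccnd2 was among the lower (239 against 490), the opposite of its direction in B cells. The difference between the classes was not tested. Of the brakes, Cdkn2c, Cdkn2d, Ccng2 and Rb1 were higher and Btg2, Tob1 and Foxo1 lower in cycling T cells.

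The genotypes were then compared member by member on summed counts of each class. In edgeR's quasi-likelihood test 0 of 45 members passed a Benjamini-Hochberg adjusted p of 0.05 in the sum of all cells or in any of 10 classes, and DESeq2 called 0 members too. The share of all genes called was 0% in the sum of all cells, B cells, T cells, classical monocytes, neutrophils, plasmacytoid dendritic cells and plasma cells, 0.0402% in natural killer cells, 0.0389% in conventional dendritic cells (0.013% higher and 0.026% lower), 0.0202% in macrophages and 0.0213% in nonclassical monocytes. Low counts kept members out: 45 were tested in all cells, B cells and T cells, 33 in conventional dendritic cells, 30 in natural killer cells, 22 in neutrophils, 18 in classical monocytes, 15 in plasma cells, 6 in plasmacytoid dendritic cells, 5 in macrophages and 2 in nonclassical monocytes. At an unadjusted p under 0.05 there were 5 results: Gins2 in B cells and in T cells, Top2a in macrophages, Mcm6 in neutrophils and Stmn1 in plasmacytoid dendritic cells. Of all genes tested, 2.95% had such a p in B cells, 2.1% in T cells, 3.39% in macrophages, 3.85% in neutrophils and 2.78% in plasmacytoid dendritic cells. The classes with no such member had 2.8% (all cells), 1.68% (natural killer cells), 6.45% (conventional dendritic cells), 2.36% (classical monocytes), 2.6% (nonclassical monocytes) and 1.53% (plasma cells). One member of 45 in B cells or in T cells is near those shares.

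Values of named members below are library-scaled CPM from edgeR, and differences are Smc3-cKO minus Smc3-WT on the log2 scale. Gins2, a subunit of the active helicase, was at 7.47, 4.23, 2.94 and 2.56 CPM in B cells, from 154, 102, 52 and 58 UMIs. The difference was -1.09 (SE 0.39, unadjusted p = 0.0338, edgeR adjusted p = 1.0). In T cells it was at 6.71, 5.09, 1.89 and 2.40 CPM, a difference of -1.41 (SE 0.41, unadjusted p = 0.0141, edgeR adjusted p = 1.0), from 33, 50, 9 and 28 UMIs. Both libraries labelled Smc3-cKO were below both Smc3-WT libraries in both classes, and in the sum of all cells too (8.21, 6.07, 6.06 and 2.98 CPM, difference -0.66, SE 0.43), where B and T cells enter again. Stmn1 in plasmacytoid dendritic cells was at 21.6, 6.75, 56.9 and 113 CPM (difference 2.65, SE 0.70, unadjusted p = 0.00384, edgeR adjusted p = 1.0), from 4, 2, 29 and 29 UMIs. Top2a in macrophages was at 89.9, 30.4, 5.91 and 54.7 CPM, with 68, 5, 2 and 3 UMIs behind it (difference -2.30, SE 0.88), and its genotypes overlapped. Mcm6 in neutrophils was at 58.6, 85.7, 24.5 and 15.0 CPM (difference -1.69, SE 0.64).

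In B cells both libraries labelled Smc3-cKO were above both Smc3-WT libraries for 8 members and below for 4, where 10.1% and 12.8% of all genes did so. Of these 8, 6 were S phase genes, as were 3 of the 4. Tpx2, which activates Aurora A on the spindle, was at 8.59, 8.04, 15.8 and 9.14 CPM (difference 0.58, SE 0.31), Pclaf at 19.7, 29.5, 32.4 and 34.4 CPM (0.44, SE 0.24) and Cdc6 at 4.46, 3.48, 3.05 and 2.47 CPM (-0.52, SE 0.35). Summed S phase CPM was 444, 492, 504 and 513 in B cells. Without Pola1 the sums were 346, 399, 395 and 395, and the genotypes overlapped. Mitosis sums were 569, 448, 588 and 415. The median member difference was 0.08, and that of all genes 0.00.

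In T cells most mitosis genes had lower values in the libraries labelled Smc3-cKO, without passing the test. Of 25 mitosis genes 23 had a negative difference, with a median of -0.28, against 10 of 20 S phase genes with a median of -0.03 and a median of 0.00 over all genes. For 6 mitosis genes and 4 S phase genes both libraries labelled Smc3-cKO lay below both Smc3-WT libraries, and for 2 S phase genes above, where 12% and 10.4% of all genes did so. Kif11, the motor that pushes the spindle poles apart, was at 18.3, 17.5, 13.7 and 10.4 CPM (difference -0.59, SE 0.25), Ccnb2 at 6.51, 6.82, 5.26 and 3.18 CPM (-0.70, SE 0.40) and Aurkb at 3.25, 4.48, 2.94 and 2.15 CPM (-0.65, SE 0.44). None of these passed the test, with edgeR adjusted p of 1.0. Summed mitosis CPM was 972, 952, 864 and 803, a difference of -0.21, and without Smc4 the sums were 363, 345, 344 and 239. Smc3-cKO 2 was the lowest in both. Leaving out Smc3-cKO 2, 14 of 25 differences were negative with a median of -0.11, and leaving out each of the others gave 19, 19 and 22 negative. Among 53 other mitosis genes 43 were negative, with a median of -0.51, and 0 passed the test. This median was -0.22 without Smc3-cKO 2 and between -0.36 and -0.62 without another library. Genes of replication outside the list had a median of 0.01 over 42.

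**Figure D5:**
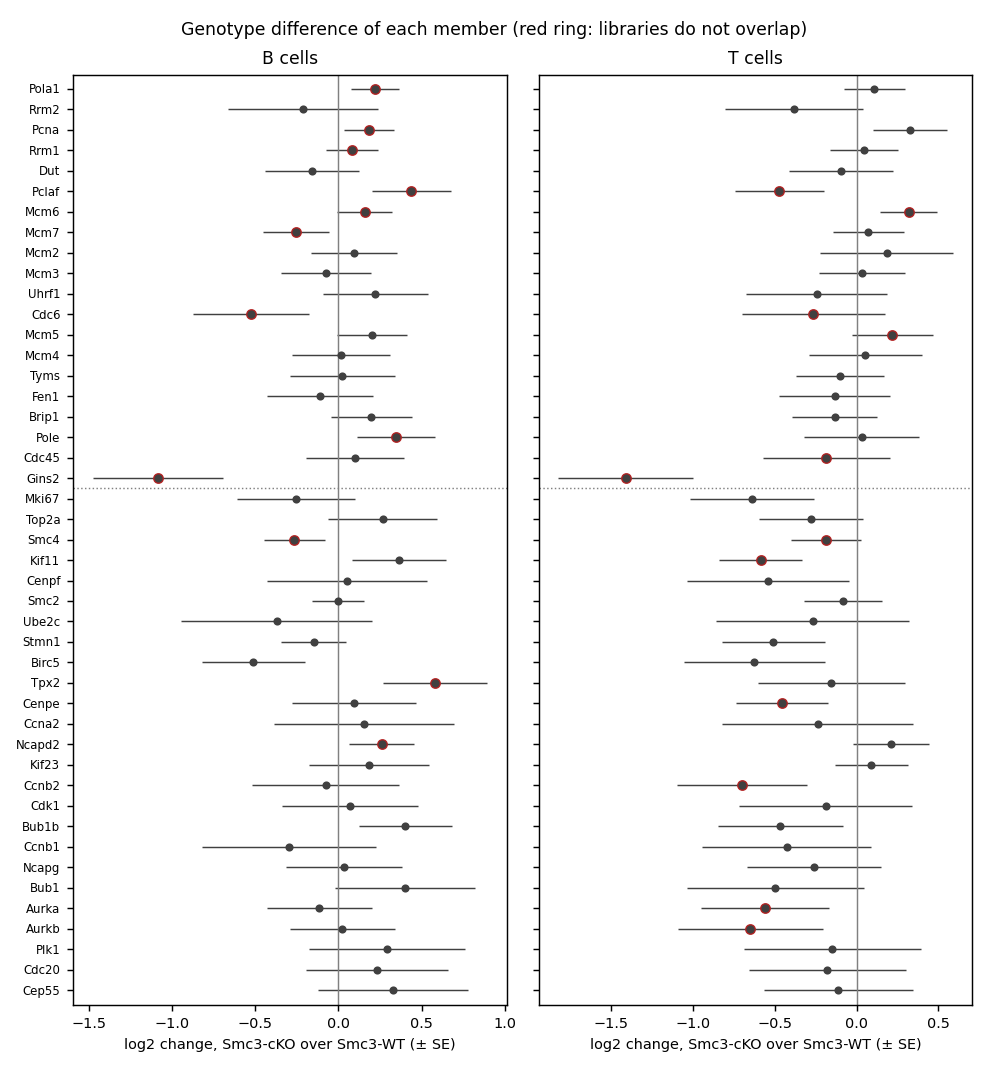
Log2 difference, Smc3-cKO minus Smc3-WT, with its SE from edgeR for each of the 45 members in B cells and T cells; a red ring marks members whose libraries do not overlap between genotypes. No member passed the test, 23 of 25 mitosis genes lie below 0 in T cells, and Gins2 has the lowest value in both classes.

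In conventional dendritic cells 33 members were tested, and the median difference was -0.07 over 17 S phase genes, -0.69 over 16 mitosis genes and 0.02 over all genes. Of the 16 mitosis genes 15 had a negative difference, and 10 of the 17 S phase genes did. Both libraries labelled Smc3-cKO were below both Smc3-WT libraries for 6 members and above for 0, where 17.3% and 17% of all genes did so. Mki67 was at 126, 157, 122 and 21.2 CPM (difference -1.03, SE 0.62), so Smc3-cKO 1 lay next to Smc3-WT 1 and only Smc3-cKO 2 stood apart. Kif23 was at 58.6, 75.5, 47.6 and 24.0 CPM (-0.94, SE 0.42), Aurkb at 16.0, 20.9, 11.4 and 9.89 CPM (-0.81, SE 0.55) and Pola1 at 240, 272, 137 and 193 CPM (-0.63, SE 0.30). Summed mitosis CPM was 837, 1133, 1122 and 312, and summed S phase CPM 591, 1136, 784 and 827. The mitosis sum of Smc3-cKO 1 was close to that of Smc3-WT 2, and without Smc3-cKO 2 the log2 difference in the sums turned to 0.20.

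Other classes had fewer members with enough counts. In natural killer cells 4 of 13 S phase and 0 of 17 mitosis genes were lower without overlap (13.6% of all genes) and 0 higher (11.8%). These included Mcm7 (31.1, 47.8, 16.8 and 22.4 CPM, difference -1.02, SE 0.45), Dut (42.0, 85.4, 28.6 and 35.8 CPM, -0.99, SE 0.44) and Rrm2 (20.2, 22.2, 15.1 and 6.71 CPM, -0.89, SE 0.55), and Pcna differed by -0.09 (SE 0.26). In classical monocytes 2 members were lower (13.8%) and 1 higher (15.9%): Dut (21.5, 25.4, 9.61 and 8.64 CPM, -1.38, SE 0.65), Pclaf (-0.58, SE 0.49) and Pcna (28.7, 41.3, 73.7 and 55.1 CPM, 0.80, SE 0.44). Neutrophils had 3 lower (15.3%) and 0 higher (14%), with Mcm3 (41.4, 64.2, 17.9 and 20.01 CPM, -1.38, SE 0.71) and Cdk1 (-0.75, SE 0.63) beside Mcm6. Plasmacytoid dendritic cells had 3 higher (13.5%) and 0 lower (13.8%), with Mcm6 (37.8, 13.5, 52.9 and 58.6 CPM, 1.21, SE 0.61) and Rrm1 (0.59, SE 0.56) beside Stmn1. Plasma cells had 3 lower (10.9%) and 0 higher (14.2%): Pola1 (66.9, 183, 60.3 and 26.0 CPM, -1.41, SE 0.62), Kif11 (-0.91, SE 0.50) and Tpx2 (-0.79, SE 0.52). No member was apart in macrophages (14.3% higher and 15.7% lower of all genes) or nonclassical monocytes (15.1% and 14.8%).

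In the sum of all cells 40 of 45 differences were positive, with a median of 0.23, against 0.03 over all genes. The genotypes overlapped for all members but Gins2 and Smc4. Gins2 and Smc4 (324, 298, 276 and 287 CPM, difference -0.14, SE 0.15) were lower without overlap, where 11.2% of all genes were lower and 11.2% higher. Without Smc3-cKO 1, which held 296 erythroid cells, 44 of 45 differences were negative with a median of -0.74. Without Smc3-cKO 2, which held 2, 43 of 45 were positive with a median of 0.89. The direction of the members in whole spleen thus turned on which library entered.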

How the data were processed

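Deposited files hold raw UMI counts per gene and cell from 10x Chromium Single Cell 3′ libraries (target 10000 cells, per the labels' protocols), made by the authors with Cell Ranger 7.0.0 per the file headers. The build is mm10 per the submitters' processing notes; annotation, intron and cell-calling settings are not given in the sources used here. The other 26 of 30 samples were not analysed here. Cells had at least 200 genes, at most 10% mitochondrial UMIs, and no Scrublet doublet call. A cell's class was the marker list with the largest share detected (at least 3), a rule set after seeing the data. Cells were thinned to 1000 UMIs with a fixed seed to call cycling. For each class, counts were summed within a library and tested with edgeR 4.0.16 (filterByExpr, TMM, quasi-likelihood, Benjamini-Hochberg 0.05); DESeq2 1.42.0 was an alternative. The tests were checked on simulated data with genes changed by a log2 of 2. They recovered 75.9% of these in B cells, 78.1% in T cells and 74.7% in conventional dendritic cells. False calls numbered 15, 15 and 16, beside 148, 153 and 142 recovered genes. Smaller changes are not covered by this check, so 0 members called does not show that members were unchanged. Members and lists were chosen with earlier results of these data known. Named were, per class, members past the threshold and the 4 others with the largest difference without overlap; in cycling cells, the 5 of each list with most UMIs; and the 5 other cell cycle genes with the largest smallest ratio of cycling to other cells. Gins2 and other members at unadjusted p under 0.05, Cep55 and Kif23 were named after their values were seen. Intervals and floors cover counting error only.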

Additional observations from a re-analysis of the deposited data

Results flagged for a closer look

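For 5 of the 28 members whose libraries did not overlap between genotypes in at least 1 class, the direction of the difference was opposite in different classes, with every Smc3-cKO library on one side in one class and on the other side in another. The same held for 17.2% of all 14417 genes tested in at least 1 class, against 11.1% of the 45 members, and 66.7% of those genes did not overlap in at least 1 class, against 62.2% of members. Of the 7776 genes tested in at least 4 classes, 30.0% were opposite, against 17.2% of 29 members. Of those genes 85.3% did not overlap in at least 1 class, against 69.0% of these members. Opposite directions were thus no more frequent among members than among all genes. None of these differences between classes was tested. Mcm6 differed by 0.16 in B cells, 0.32 in T cells and 1.21 in plasmacytoid dendritic cells, and by -1.69 in neutrophils (log2, Smc3-cKO minus Smc3-WT). Pclaf differed by 0.44 in B cells, -0.47 in T cells and -0.58 in classical monocytes. Pcna differed by 0.18 in B cells and 0.80 in classical monocytes, and by -0.0940 in natural killer cells. Pola1 differed by 0.22 in B cells, -0.63 in conventional dendritic cells and -1.41 in plasma cells. Tpx2 differed by 0.58 in B cells and -0.79 in plasma cells.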

How the results depend on the processing

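None of the 36 named differences of members between genotypes turned its direction where it was tested, and without Smc3-WT 2 only 33 were tested. All but Top2a in macrophages had libraries that did not overlap between genotypes. Leaving out 1 library could hardly turn such a difference, so this is no sign of stability. Stmn1 in plasmacytoid dendritic cells passed the threshold without a filter on low counts (2.64) and with the replicate block (2.66). Its difference was 3.52 without Smc3-WT 1. With all 4 libraries, 0 members were called in any class under the other settings. Fits that leave 1 library in an arm called members in some classes, and are not counted here. A lone library left in an arm is assumed to vary like the others. The replicate number is shared between genotypes, but the labels do not say what it marks, and there are only 2 pairs; same-numbered libraries deviated together with r of 0.53 in all cells, 0.52 in B cells, 0.47 in T cells and -0.15 in neutrophils. The replicate block changed no other call of a member. It did change patterns without calls. In all cells, 26 of 45 differences were positive with the block, with a median of 0.05, and the mitosis median was -0.01. In T cells the mitosis median was -0.39. There 8 members had an unadjusted edgeR p under 0.05 with the block and 1 without it, and in B cells 3 and 1.

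The difference in the share of cycling cells, Smc3-cKO minus Smc3-WT in percentage points, was -1.48 over all cells (-5.73 thinned to 2000 UMIs, -0.174 without Smc4 and Pola1, 0.644 at 5 UMIs, -4.26 to 1.30 leaving out a library). In B cells it was -1.54 (-4.87 with 2 UMIs, -5.92 with 2000, -0.521 without Smc4 and Pola1, 0.251 at 5 UMIs; leave-one-out -3.82 to 0.745), in T cells -2.82 (-6.67 with 2000, -0.511 without Smc4 and Pola1, -0.377 unthinned; leave-one-out -5.18 to -0.457), and in conventional dendritic cells -2.46 (-6.42 with 2 UMIs, -5.11 unthinned, -5.49 with 2000, -0.0328 without Smc4 and Pola1; leave-one-out -4.52 to -0.396). In neutrophils it was -12.5 (-25.3 unthinned, -5.94 at 5 UMIs, -1.41 at 5 of 2000 UMIs; leave-one-out -18.7 to -6.29), and at 5 UMIs -2.51, -3.31 and -4.25 in other draws, -3.04 with a mitochondrial limit of 20% and -3.48 with doublets kept. In T cells at 5 UMIs it was -0.716 as drawn, 0.256 without Smc4 and Pola1, -0.0323 in another random draw and -0.222 with a mitochondrial limit of 20%. Some of these were chosen after seeing the data: leaving out Smc4 and Pola1, other draws, and the 5 UMI combinations.

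Leaving out a library, the log2 difference in summed S phase CPM ranged from -0.35 to 0.64 in all cells, 0.05 to 0.19 in B cells, -0.09 to 0.22 in T cells and -0.50 to 0.45 in conventional dendritic cells. The mitosis sums ranged from -0.77 to 0.76, -0.28 to 0.22, -0.26 to -0.15 and -1.64 to 0.20, and the S phase to mitosis ratio from -0.11 to 0.42, -0.11 to 0.42, 0.06 to 0.48 and -0.27 to 1.66, in the same order. In T cells the mitosis difference was -0.30 without Smc4 and Pola1. Of erythroid against B cells, 44 members were higher whichever library was left out and 27 in cycling cells alone, where fewer members were tested. In cycling cells the count ranged from 8 to 22 leaving out a library (8 without Smc3-WT 1 and 8 without Smc3-cKO 1). Cycling cells were chosen by the members' own UMIs, so these counts are a description. With all cells, 0 were lower without Smc3-WT 2 and without Smc3-cKO 1, and with all 3 libraries 0 were lower in cycling cells alone.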

Other observations

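Cells outside the gated classes also held cycling cells. At 5 UMIs the share was 5.37%, 11.0%, 12.98% and 6.79% of cells with markers of 2 lineages and 5.80%, 9.95%, 16.3% and 2.35% of cells with too few markers. Of 7 genes of G1 entry, 6 had a positive genotype difference in B cells (median 0.34) and 6 in T cells (median 0.27), and 0 passed the test in either class.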
